A study of Mus musculus with 2 samples.

Results

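The distal 3 Mb stretch of mouse chromosome 7 that holds Tnni2, H19 and Igf2 was examined in chromatin immunoprecipitation sequencing (ChIP-seq) of primary osteoblasts, the bone-forming cells. The stretch, called the domain here, runs from 148500001 to 151500000 as the deposited reads are numbered. Its members are defined by position, with earlier results of these data known when it was chosen, and it makes up 300 bins of 10 kb, of 247239 such bins on chromosomes 1 to 19. One library came from 129sv mice homozygous for the del175k allele of Tnni2 (Tnni2del175k/175k, mutant) and 1 from their wild-type littermates. Both were made with an antibody against Tnni2 from Santa Cruz Biotechnology, and the labels used here state no age. The submitters state n = 3, and whether these animals were counted per genotype or pooled is not said, so every comparison is between 2 libraries, with no replicate check. No input library was analysed here, so antibody binding, mappability and base composition cannot be told apart in the read density. Intervals cover counting error only.

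Tnni2 encodes the inhibitory troponin subunit of fast skeletal muscle, the part of the thin filament that holds contraction off until calcium arrives. Downstream of it lies an imprinted cluster, in which the copy from 1 parent is silenced. H19, a noncoding RNA, is made from the maternal copy and Igf2, which encodes an insulin-like growth factor, from the paternal copy in most fetal tissues. A control region that carries DNA methylation on the paternal copy decides which of them reaches shared enhancers. Further along, the noncoding RNA Kcnq1ot1 silences neighbours such as Cdkn1c, a cell cycle inhibitor.

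In the RefSeq gene table of GRCm38.p6, used for names and order only, Tnni2 stood between Syt8 and Lsp1. Leaving out predicted genes, 5 genes lay between Tnni2 and H19. These were Lsp1, Prr33, Tnnt3, which encodes the fast skeletal troponin T, Mrpl23 and Nctc1. By order of start coordinate, the only entry after H19 and before Igf2 was Mir675. It is a microRNA cut from the H19 transcript, so it lies within H19. Igf2 was followed by Ins2, Th, Ascl2, Cd81, Kcnq1, Kcnq1ot1, Cdkn1c and Phlda2, with other genes among them. The positions of Tnni2, H19 and Igf2 in the coordinates of the reads were taken as given for the mm9-like build of the files and were not checked against an annotation of that build. The other genes have no position here.

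Some sequences of the H19 and Igf2 landmarks are shown to identify their products, from RefSeq (GRCm38.p6, chromosome 7, minus strand). They were not placed in the coordinates of the reads. H19 is the host of miR-675 and Igf2 of miR-483. Capitals mark the seed, bases 2 to 8, and no seed was shared among the 4 mature microRNAs.
mmu-miR-675-5p: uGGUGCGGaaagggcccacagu
mmu-miR-675-3p: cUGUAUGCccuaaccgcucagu
mmu-miR-483-5p: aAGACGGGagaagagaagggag
mmu-miR-483-3p: uCACUCCUccccucccgucuu

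Igf2 had 4 promoter windows in the table, each of 300 bases with 250 before and 50 after a transcript start. The windows with the fewest and the most CpG dinucleotides, the sites of DNA methylation in imprinted genes, are printed with CG in capitals, a motif that reads alike on both strands. The window of the most upstream start held 2 CpGs, and 85.9% of the 32851 promoter windows of the table held at least as many. The third window from the upstream side held 24, and 19.98% of all windows held at least as many. The median window held 7.
Igf2, window with 2 CpGs: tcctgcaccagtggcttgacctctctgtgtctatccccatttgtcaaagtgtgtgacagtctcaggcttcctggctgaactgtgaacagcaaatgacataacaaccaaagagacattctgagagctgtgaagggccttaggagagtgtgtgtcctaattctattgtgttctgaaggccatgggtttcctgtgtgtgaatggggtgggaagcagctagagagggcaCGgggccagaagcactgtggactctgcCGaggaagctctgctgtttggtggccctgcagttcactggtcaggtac
Igf2, window with 24 CpGs: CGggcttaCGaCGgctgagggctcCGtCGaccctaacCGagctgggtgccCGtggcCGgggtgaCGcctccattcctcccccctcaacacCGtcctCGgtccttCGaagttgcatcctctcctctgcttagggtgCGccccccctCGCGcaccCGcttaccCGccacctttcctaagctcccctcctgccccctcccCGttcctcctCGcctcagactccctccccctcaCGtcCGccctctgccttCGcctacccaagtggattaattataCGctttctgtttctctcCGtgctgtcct

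The domain held more reads per kb than the rest of chromosome 7 in both libraries. After removal of repeated reads it held 5508 distinct positions (chromosome, 5′ end and strand) in mutant cells and 5875 in wild-type cells. That was 1.84 positions per kb in mutant and 1.96 in wild-type cells, against 1.13 and 1.11 per kb on the rest of chromosome 7. The domain was thus 1.63 times as dense as the rest of the chromosome in mutant cells (95% Poisson interval 1.59 to 1.67) and 1.77 times in wild-type cells (1.72 to 1.81). Both intervals lie well above 1. Of the 45 other 3 Mb windows of chromosome 7 with 1000 or more positions, 0 held more than the domain's 11383 summed positions, and their median was 7253. The highest of them, from 142500001, held 10968. The window directly before the domain, from 145500001, held 10504, so nearly the same density was reached next to the domain. Over chromosomes 1 to 19, 21 of 780 other windows (2.69%) were denser.

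The bins of the domain were also more evenly filled. The median 10 kb bin held 19 positions in mutant cells, with a range of 0 to 34, and 20 in wild-type cells, with a range of 0 to 43. The medians on the rest of chromosome 7 were 12 and 11. Bins empty in both libraries made up 1.33% of the domain (4 of 300 bins) and 12.7% of the rest of chromosome 7 (1859 of 14653). The variance of the counts over their mean was 2.67 in mutant and 2.94 in wild-type cells, against 5.17 and 5.83 on the rest of the chromosome. Across the 300 bins the counts of the libraries had a Pearson r of 0.586 and a Spearman rho of 0.496. Elsewhere on the chromosome these were 0.799 and 0.821. Bins within a library share its depth, mappability and base composition, so these correlations are descriptions.

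**Figure D1:**
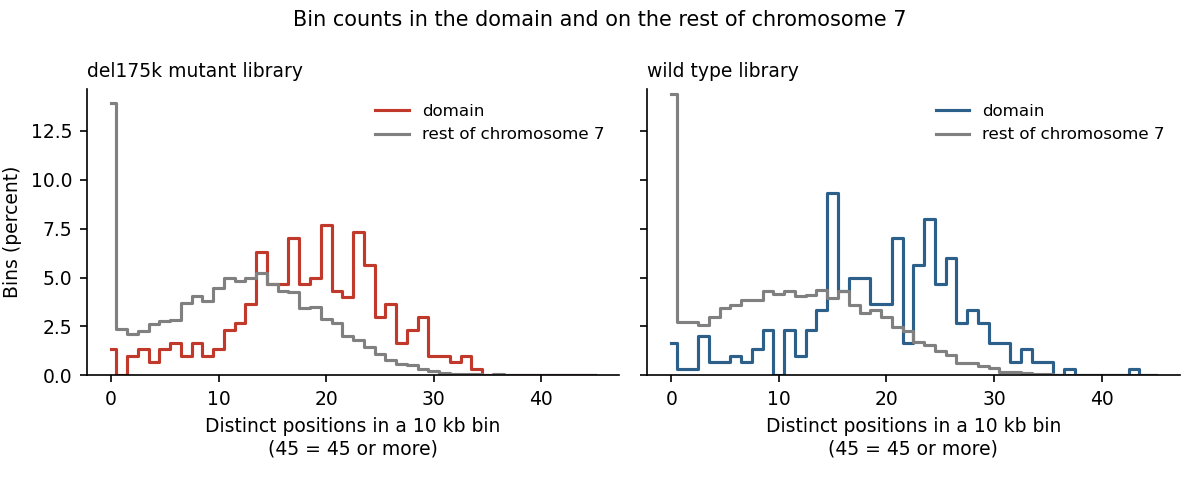
Share of 10 kb bins (percent, vertical axis) by the number of distinct positions they held (horizontal axis), for the mutant library on the left and the wild-type library on the right. The coloured line of the domain peaks to the right of the grey line of the rest of chromosome 7, with medians of 19 against 12 in the mutant and 20 against 11 in wild-type cells.

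The bins empty in both libraries lay in long stretches without reads. The longest stretch without a position in either library ran for 40.4 kb, from 148890328 to 148930693. It took in 3 of the 4 bins that were empty in both, those starting at 148900001, 148910001 and 148920001. The bin from 148890001, at its edge, held 2 positions in mutant cells and 1 in wild-type cells. The second stretch ran for 17.3 kb from 149957195 to 149974477, beyond Igf2, and held the fourth empty bin, from 149960001. In all, 11 stretches of 5 kb or more were empty in both libraries and summed to 124.3 kb. Without a genome of this build, whether they are assembly gaps or repeats was not tested.

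**Figure D2:**
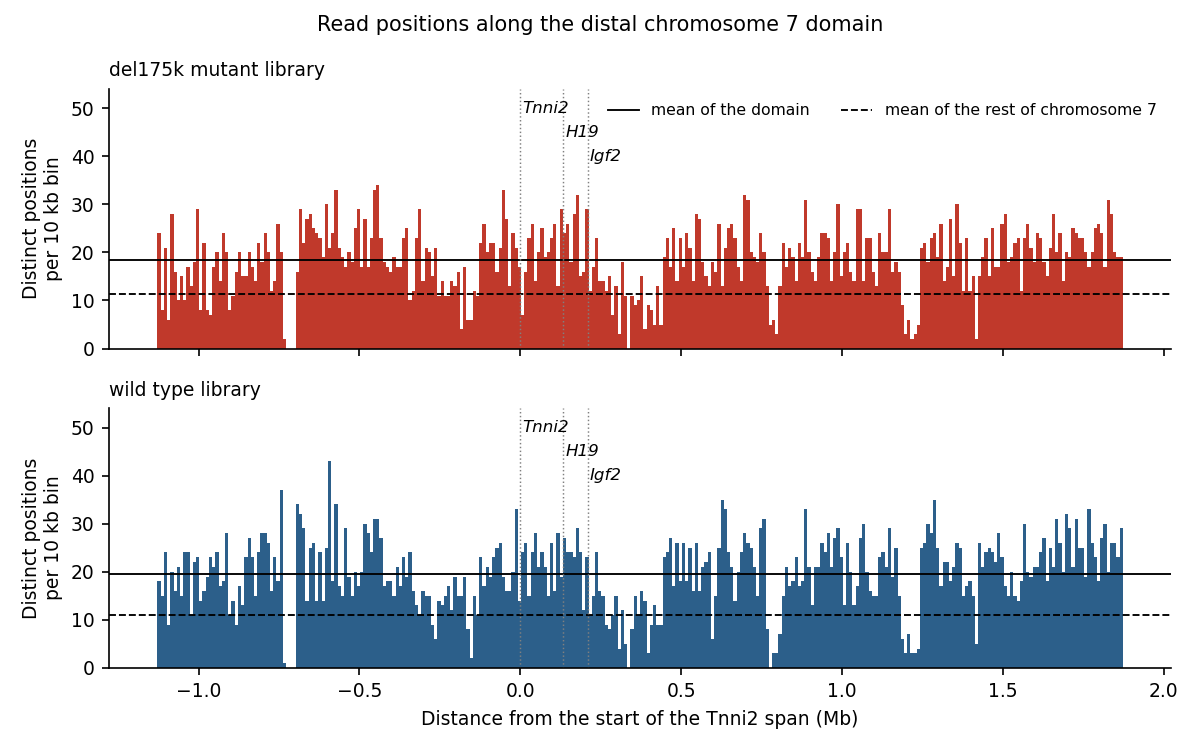
Distinct positions per 10 kb bin (vertical axis) along the domain, by distance in Mb from the start of the Tnni2 span (horizontal axis), with the mutant library above and the wild-type library below. The solid line is the mean of the domain and the dashed line that of the rest of chromosome 7. The bins stay above the dashed line over most of the domain and drop to 0 at the stretches without reads. In both libraries fuller bins occur away from the dotted lines of Tnni2, H19 and Igf2. The mutant bin that holds the Igf2 position, with 29 positions, stands above its neighbours, with 16 and 12.

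The fullest bins were nearly alike in the 2 libraries, with 1 exception. The bin from 149050001 held 33 positions in mutant and 34 in wild-type cells, and the bin from 149180001 held 34 and 31. The bins from 149170001 and 150510001 held 33 and 31 in mutant cells, against 31 and 33 in wild-type cells. The bin from 149030001 held 21 positions in mutant cells and 43 in wild-type cells, the highest wild-type count of the domain. Its depth-scaled ratio, the mutant count over the wild-type count after scaling each library to its positions on chromosomes 1 to 19, was 0.471 (95% exact interval 0.265 to 0.811). All 5 bins lay away from the 3 landmark genes, 4 of them before Tnni2 and the bin from 150510001 beyond Igf2.

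The domain as a whole was lower in mutant cells by this measure. Its depth-scaled ratio was 0.904 (0.871 to 0.938), and that of the rest of chromosome 7 was 0.980 (0.974 to 0.987). The ratio of the domain over that of the rest was 0.922, and its exact conditional interval (0.888 to 0.957) excluded 1. The shift was spread along the domain. From its start to Tnni2 the ratio was 0.914 (0.859 to 0.971), and from Igf2 to its end 0.896 (0.852 to 0.941). Between Tnni2 and H19 it was 0.890 (0.751 to 1.06), and between H19 and Igf2 0.953 (0.768 to 1.18). These shorter segments held 266 mutant and 288 wild-type positions, and 174 and 176, so that a ratio of 1 and the ratio of the whole domain both lay within their intervals. The H19 to Igf2 segment was the densest of the 4, with 2.31 positions per kb in mutant and 2.34 in wild-type cells.

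The low ratio went with the high density of the domain. Across 781 windows of 3 Mb on chromosomes 1 to 19, the domain included, Spearman's rho between ratio and summed positions was -0.801, a description of 2 libraries over windows that are not replicates. On chromosome 7 alone rho was -0.532 over 46 windows. Pooled, the 157 sparsest windows came to a ratio of 1.11 and the 156 densest to 0.933. Of the 45 other windows of chromosome 7, 3 had a lower ratio than the domain, and of the 780 on all autosomes 41 (5.26%). Among the 21 windows denser than the domain, the ratios ran from 0.770 to 0.948 with a median of 0.893, and 13 lay below the ratio of the domain. The domain therefore did not stand apart from the windows of higher density. The part of base composition or fragment size in this trend was not tested.

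**Figure D3:**
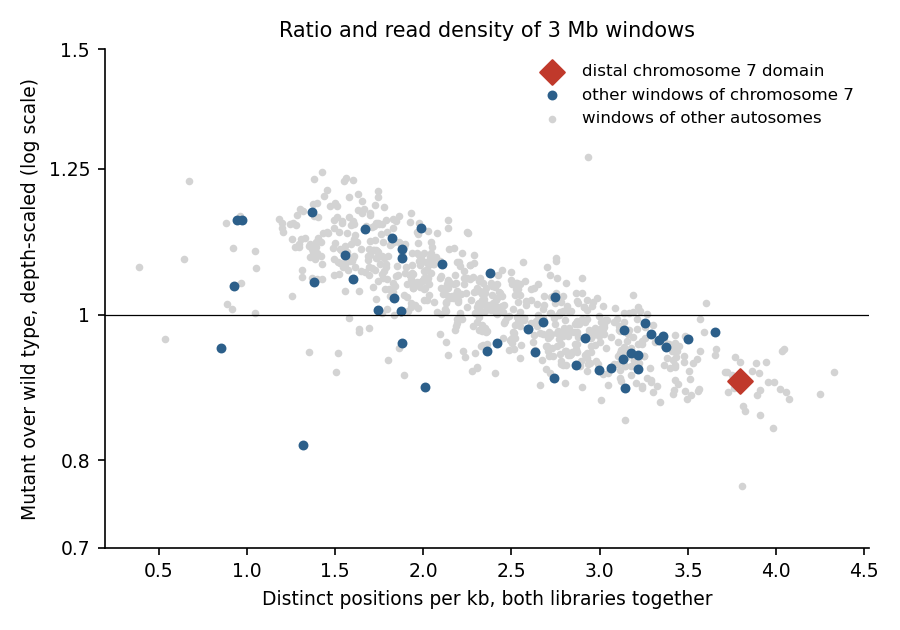
Depth-scaled mutant over wild-type ratio (vertical axis, log scale) against distinct positions per kb in both libraries together (horizontal axis) for 3 Mb windows of chromosomes 1 to 19. The diamond is the domain, blue points are the other windows of chromosome 7 and grey points those of the other autosomes. Ratios fall from left to right, and the domain, with a ratio of 0.904, sits inside the cloud at the dense end.

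Within the domain no steady trend of the ratio with density could be told from counting error. In the 60 sparsest bins, with up to 28 summed positions, it was 0.955 (0.845 to 1.08), and in the 60 densest bins, with 48 to 67, it was 0.879 (0.820 to 0.943). The 3 groups of 60 bins between them had ratios of 0.875, 0.936 and 0.907 in order of density, and the intervals of all 5 groups overlap.

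At 100 kb the ratio lay below 1 in 26 of 30 bins (86.7%), against 52.0% of 1182 bins on the rest of chromosome 7. The median ratio was 0.891 in the domain and 0.993 on the rest of the chromosome. The 95% interval lay below 1 in 6 of the 30 bins and above 1 in 1. On the rest of chromosome 7 the percentages were 6.43 for lower and 5.25 for higher, and on chromosomes 1 to 19 4.77 and 5.57. The bins of the domain were denser, with a median of 408 summed positions. The medians were 277 on the rest of chromosome 7 and 244 on chromosomes 1 to 19. Bins of like density were not compared, so these shares do not separate the domain from its density. The lowest ratios were 0.768 from 148800001 (172 mutant and 216 wild-type positions), 0.772 from 151300001 (209 and 261) and 0.774 from 150000001 (118 and 147). The highest were 1.36 from 149300001 (179 and 127), 1.10 from 150400001 (142 and 124) and 1.05 from 149900001 (97 and 89). Of these last 3, the interval excluded 1 for the bin from 149300001 alone (1.08 to 1.72), and the other bins include stretches without reads. The low bins from 148800001 and 150000001 include such stretches as well. The bin that holds Tnni2, from 149600001, had 193 mutant and 229 wild-type positions, with a ratio of 0.812 (0.667 to 0.988). The bins that hold the H19 and Igf2 positions, from 149700001 and 149800001, had ratios of 0.977 (0.808 to 1.18) and 0.996 (0.806 to 1.23).

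**Figure D4:**
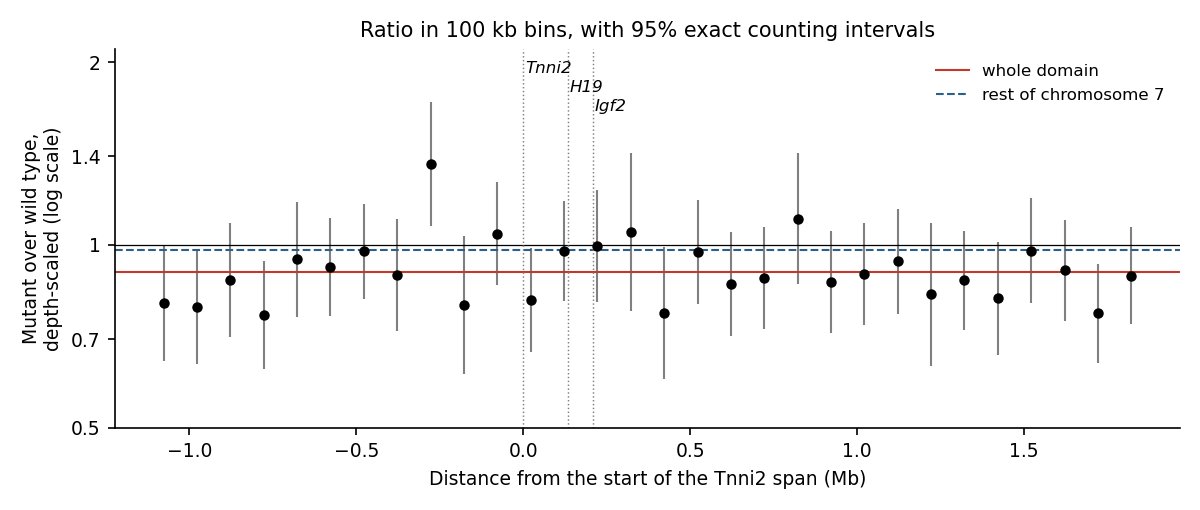
Depth-scaled mutant over wild-type ratio (vertical axis, log scale) of each 100 kb bin, with its 95% exact counting interval, by distance in Mb from the start of the Tnni2 span (horizontal axis). Horizontal lines mark a ratio of 1, the whole domain (red) and the rest of chromosome 7 (dashed blue). Most points lie below 1, the point at 1.36 lies before Tnni2, and no step is visible at Tnni2, H19 or Igf2.

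At 10 kb, 271 of the 300 bins held 20 or more positions in the libraries together and were compared. The 95% interval of the ratio excluded 1 in 16 of them, 13 lower and 3 higher in mutant cells. The percentage of bins called was 3.87 on the rest of chromosome 7 (2.39 lower and 1.48 higher, of 8505 bins) and 4.16 on chromosomes 1 to 19 (2.37 lower and 1.79 higher). The 16 bins are 5.90% of those compared. With the libraries scaled to the domain itself, an alternative chosen after the data were seen, 14 bins were called, 9 lower and 5 higher. A 2-fold difference was also found in 16 bins, 13 lower and 3 higher, again 5.90%. The background percentages were 7.3 on the rest of chromosome 7 (3.72 lower and 3.59 higher) and 8.41 on chromosomes 1 to 19 (3.96 lower and 4.45 higher). Scaled to the domain, these were 12 bins, 8 lower and 4 higher. With the interval widened for all 148261 bins compared on chromosomes 1 to 19, 0 bins of the domain were called, against 2 on the rest of chromosome 7 (0.0235 percent) and 15 in all (0.0101 percent). The log2 ratios of the 271 bins had an SD of 0.51, where binomial sampling of the same counts gives 0.47. On the rest of chromosome 7 these were 0.54 and 0.52.

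The lowest 10 kb ratio of the domain lay directly at the end of Tnni2. The bin from 149630001 to 149640000, which includes the last 0.4 kb of the Tnni2 span, held 7 positions in mutant cells and 24 in wild-type cells. Its ratio was 0.281 (0.102 to 0.673), and its interval widened for all bins ran from 0.0133 to 2.12. The mutant count was 0.380 times what the rest of the domain predicts (95% Poisson interval 0.153 to 0.784), and the wild-type count 1.23 times (0.786 to 1.83). Of the 300 bins of the domain, 25 held as few mutant positions or fewer, and 104 held as many wild-type positions or more. Bins at or below this ratio numbered 22 of 8505 on the rest of chromosome 7 (0.259%) and 253 of 148261 on chromosomes 1 to 19 (0.171%). The bin was named as the lowest of 271, and neither its unwidened interval nor the Poisson intervals of its counts allow for that choice. The neighbouring bin that holds the start of Tnni2 held 17 mutant and 14 wild-type positions, with a ratio of 1.17 (0.543 to 2.57). The 30 kb before these bins had 58 mutant and 69 wild-type positions (ratio 0.810, 0.561 to 1.17), and the 30 kb after them 65 and 65 (0.964, 0.673 to 1.38).

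The next lowest bins were those from 148660001, with 7 mutant and 23 wild-type positions (ratio 0.293, 0.106 to 0.706), and from 150250001, with 13 and 35 (0.358, 0.174 to 0.694). The highest were those from 149360001, with 21 mutant and 6 wild-type positions (3.37, 1.32 to 10.2), from 150220001, with 18 and 6 (2.89, 1.10 to 8.90), and from 149310001, with 29 and 11 (2.54, 1.23 to 5.64). Of these, the bins from 149310001 and 149360001 lie in the 100 kb bin with the highest ratio and are not separate from it. All 6 had widened intervals that included 1.

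Tnni2 itself showed neither a pile-up nor a loss of reads that this depth could detect. Its span, from 149627700 to 149630400 (2701 bp), held 6 positions in mutant cells and 6 in wild-type cells. The ratio was 0.964, with an interval of 0.258 to 3.61. Underlying ratios anywhere in that range are compatible with these counts. In the mutant library the 6 positions were 1.21 times what the rest of the domain predicts (0.444 to 2.63), and in wild-type cells 1.13 times (0.416 to 2.47). Of 1110 stretches of the same length tiled over the domain, 442 held as many or more mutant positions, and 43.7% as many or more wild-type positions.

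The reads at Tnni2 can be given one by one. In the mutant library the 5′ ends lay at 149627796, 149627890, 149627998, 149629333 and 149629859 on the minus strand and at 149629472 on the plus strand. In the wild-type library they lay at 149627898, 149629485, 149629588 and 149630305 on the minus strand and at 149629753 and 149630305 on the plus strand. No position was shared. Each mutant position held 1 read, and of the wild-type positions that at 149629753 held 2. Beyond the span, up to 149640000, the mutant library had 7 positions, 5 on the plus and 2 on the minus strand, between 149630958 and 149637063. The wild-type library had 22 there, 9 on the plus and 13 on the minus strand, between 149630450 and 149638724. With wider surroundings the ratio at Tnni2 was 1.06 with 1 kb on either side (11 and 10 positions), 0.654 with 5 kb (19 and 28), 0.685 with 10 kb (32 and 45) and 0.852 with 50 kb (197 and 223). Each of these intervals included 1.

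**Figure D5:**
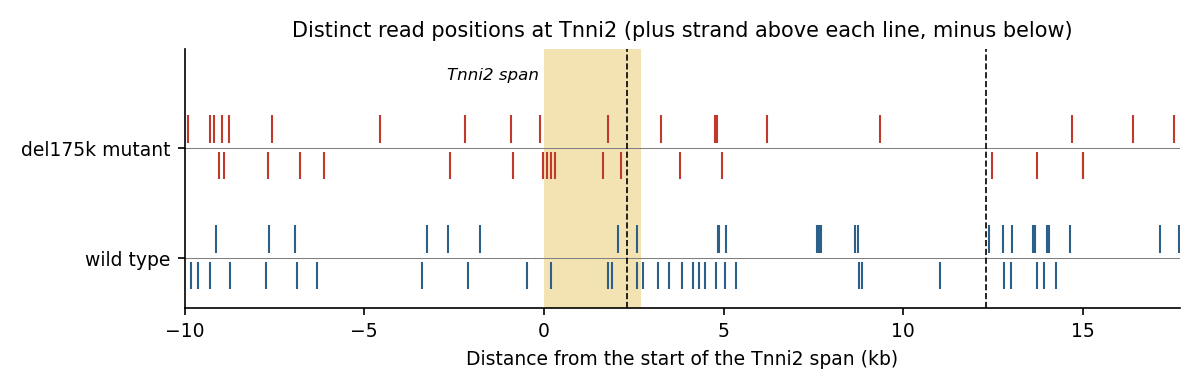
Distinct read positions at Tnni2 by distance in kb from the start of its span (horizontal axis), with the mutant library above and the wild-type library below; ticks above each line are on the plus strand and ticks below it on the minus strand. The shaded block is the Tnni2 span and the dashed lines bound the 10 kb bin after it. Each library has 6 ticks in the block, and between the dashed lines the mutant library has 7 and the wild-type library 24.

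The H19 and Igf2 positions were not distinguishable between the libraries either. Within 10 kb on either side of the H19 position, 149761500, 50 positions were found in mutant and 43 in wild-type cells, giving 1.12 as the ratio (0.731 to 1.73). These were 1.36 times the level of the rest of the domain in mutant cells (1.01 to 1.80) and 1.10 times in wild-type cells (0.795 to 1.48). With each read shifted toward the middle of its fragment the mutant interval included 1 (0.989 to 1.77). Of 149 stretches of this length tiled over the domain, 9.40% held as many or more mutant positions and 40.9% as many or more wild-type positions. Within 5 kb the levels were 1.20 times (0.751 to 1.82) in mutant and 0.868 times (0.505 to 1.39) in wild-type cells. Within 25 kb they were 1.24 times (1.02 to 1.49) in mutant and 1.20 times (0.992 to 1.44) in wild-type cells. Within 50 kb on either side the levels were 1.31 times (1.15 to 1.49) with 239 positions in mutant cells, and 1.20 times (1.05 to 1.36) with 233 in wild-type cells. Of 29 stretches of that length, 3.45% held as many or more mutant positions and 13.8% as many or more wild-type positions. The interval of the wild-type level thus lay above 1 at 50 kb and included 1 at the narrower widths.

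Within 10 kb on either side of the Igf2 position, 149836700, 42 positions were found in mutant and 33 in wild-type cells, giving 1.23 as the ratio (0.759 to 1.998). Within 5 kb they held 33 and 18, a ratio of 1.77 (0.967 to 3.33). The mutant count was then 1.80 times the level of the rest of the domain (1.24 to 2.53), and the wild-type count 0.919 times (0.544 to 1.45). Within 25 kb the ratio was 1.02 (0.750 to 1.39), and within 50 kb it was 0.969 (0.792 to 1.19). The excess of the mutant library near Igf2 was therefore seen over 10 kb and not over wider stretches, and the interval of the ratio included 1 at every width.

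No enriched region was called in the domain in either library. Regions are local excesses of distinct positions in 500 bp bins over the library mean and over the 10 kb around. Each position was first shifted toward the middle of its fragment. The 500 bp counts given here therefore need not match the unshifted 5′ ends listed at Tnni2. The threshold was a Benjamini-Hochberg q under 0.01 over all bins of chromosomes 1 to 19 and X. Of 88 such regions in mutant cells 1 lay on chromosome 7, and of 92 in wild-type cells 5. The fullest 500 bp bin of the domain in mutant cells, from 150573001, held 7 positions and 0 in wild-type cells. That of the wild-type library, from 150513001, held 8 in wild-type cells and 1 in mutant cells. At the mean background of each library 8 positions were needed for a call, and more where the surroundings are denser. The fullest 500 bp bin touching Tnni2 in mutant cells, from 149627501, held 5 positions, 7.69 times its surroundings, and 1 in wild-type cells. That of the wild-type library, from 149630001, held 3 positions and 0 in mutant cells.

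The shares of repeated reads and of the strands in the domain were close to those of the rest of chromosome 7. Pairs of reads a fragment apart were in excess in both, and the lower values of the domain have the limits given below. Repeats of a position already counted were 7.98% of mutant reads (7.31 to 8.70%, exact binomial) and 12.0% of wild-type reads (11.3 to 12.8%). Elsewhere on the chromosome they were 8.04% and 11.5%, both within these intervals. At most 5 mutant reads, at 149250908, and 7 wild-type reads, at 150951114, shared a position. The plus strand held 49.5% of the mutant positions (48.1 to 50.8%) and 49.4% of the wild-type positions (48.1 to 50.7%), so that neither strand was in excess. Opposite-strand pairs of reads were counted within 15 bp of the fragment length, 216 bp in the mutant and 213 bp in wild-type cells. The domain held 125 such pairs and 285 pairs 500 to 600 bp apart in mutant cells, and 158 and 384 in wild-type cells. Per bp of spacing range, pairs at the fragment length were 1.43 times as frequent as the distant pairs in mutant cells (1.19 to 1.70). In the wild-type library they were 1.34 times as frequent (1.14 to 1.57). On the rest of chromosome 7 these values were 1.66 in mutant and 1.75 in wild-type cells, inside the mutant and outside the wild-type interval of the domain. Chance pairs are more frequent where reads are dense. The excess over them came to 6.81 pairs per 1000 positions in mutant and 6.83 in wild-type cells. On the rest of the chromosome it was 8.21 and 9.73. No interval was computed for these excesses, so whether the domain differs by them was not tested.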

How the data were processed

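Each deposited file holds aligned reads of 36 bp, 1 on each line. A score column that the authors deposited never varies and was ignored. Starts, ends and strands were taken as deposited, and every count was made here. Per the submitters' processing notes Bowtie did the alignment; version, settings and filters: not given in the sources used here. The series text names mouse reference 8, while the last 5′ end on chromosome 7, at 152524418, lies beyond what is known of that build and within mm9, so the build is uncertain. Coordinates count from 1.

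The mutant library held 3273273 reads at 3003795 distinct positions and the wild-type library 3305140 at 2920353, of which 2927228 and 2821498 lay on chromosomes 1 to 19 and served for scaling. Ratios carry exact Clopper-Pearson intervals of the split of counts, and counts against a background exact Poisson intervals. The rest of chromosome 7 runs from the first to the last read without the domain. Log2 ratios used 0.5 added to each count. Windows of 3 Mb starting before 3 Mb or with under 1000 positions were left out. Bins named are the 5 fullest, the 5 emptiest and the 3 highest and lowest by ratio. The domain, its landmarks and these rules were chosen with earlier results of these data known. Calls were tested on simulated data. Tools were scipy 1.17.1, numpy 2.4.6, matplotlib 3.10.9 and pandas 2.3.3 under Python 3.11.15.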

Additional observations from a re-analysis of the deposited data

How the results depend on the processing

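Of 110 alternative values for 17 results, 94 stayed within the interval of the main value or, for counts, within 1.5 times of it, and 0 turned the direction of a called value. A turn could be recorded only for values whose main interval excluded 1, and never for counts. For most of the 17 results that 0 was therefore fixed in advance. Wide main intervals, such as those at Tnni2, make staying inside them easy. Leaving out empty bins cannot change the ratio of the domain over that of the rest, so that value was no separate check. Set against chromosomes 1 to 19 in place of chromosome 7, the domain was 1.52 times as dense in mutant and 1.68 times in wild-type cells. Over bins with a position alone it was 1.44 and 1.56 times as dense. Within 5 kb of Igf2 the mutant level was 1.80 times that of the domain. Bins whose interval excluded 1 numbered 7 of 301 compared at 5 kb, 10 of 145 at 20 kb, 6 of 60 at 50 kb and 7 of 30 at 100 kb. Bins 2-fold apart numbered 37 of 301, 2 of 145, 0 of 60 and 0 of 30 compared at these sizes, and bins 1.5-fold apart at 10 kb numbered 74 of 271. Among these counts, shares outside the domain were computed only for the interval at 100 kb, given above. The other counts have no background here, so whether they exceed it was not tested. With every aligned read counted, the domain gained 1 enriched region in mutant and 3 in wild-type cells. Over chromosomes 1 to 19 and X this setting called 339 regions in mutant and 924 in wild-type cells, of which 25 and 43 lay on chromosome 7. With 200 or 1000 bp bins, no shift, or q under 0.05 or 1e-05, 0 were called in the domain. The causes were not tested. No paired analysis was possible because each group holds 1 library, so no library could be left out. Depth limits the landmarks: at Tnni2 underlying ratios between 0.258 and 3.61 were all compatible with the counts.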

Other observations

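The stretches on either side of the domain differed from each other. The 1000 kb before it, from 147500001, held 1.44 positions per kb in mutant and 1.36 in wild-type cells, with a ratio of 1.02 (0.946 to 1.10). The stretch after it, from 151500001 to the last read on the chromosome, held 1.97 and 2.17 positions per kb, with a ratio of 0.873 (0.821 to 0.927). Dense counts with a ratio below 1 thus reached beyond the domain on the distal side, and the boundary of the domain at that side marks no change in these counts. The 1000 kb before the domain does not show where the dense end begins. Windows of the domain's length from 139500001, 142500001 and 145500001 held 10078, 10968 and 10504 summed positions, against 11383 in the domain. Their ratios were 0.9673, 0.9734 and 0.9635, so dense windows with ratios below 1 also lay before the domain. No interval was computed for these ratios.

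With every aligned read counted, the regions called in the domain lay from 149552001 in mutant cells, with 8 reads, and from 148657001, 150513001 and 151124501 in wild-type cells, with 9, 10 and 9 reads. None of these 4 places lay at Tnni2, H19 or Igf2, and 0 were called in both libraries. How many regions elsewhere were called in both libraries was not counted.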
